A study of Mus musculus with 2 samples.

Results

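The genes described here encode carriers that move glucose, amino acids and monocarboxylates across membranes. They are the genes whose symbol is Slc1a, Slc2a, Slc6a, Slc7a, Slc16a or Slc38a followed by a number. They were found by symbol among probe sets whose platform annotation names a single gene, which gave 73 of the 18193 genes measured, read by 150 probe sets. Both samples were liver cells of wild-type C57Bl6 mouse embryos at stage E12.5. One sample held mesothelial cells, the flat epithelium covering the organ, obtained by FACS with antibodies to the surface protein podoplanin (Pdpn), and the other held liver cells. The labels do not say whether Pdpn+ cells had been removed from the liver cells, nor how many embryos were pooled. RNA was amplified from 20 ng and hybridised to Affymetrix mouse arrays, with 1 array per group and no replicate. No difference was therefore tested, and every value describes these 2 arrays. A free-text label names much younger embryos, and the stated age was used.

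Cells that grow and divide take up glucose, amino acids and lactate through carriers of the solute carrier (Slc) families. Slc2a proteins carry glucose and other hexoses by facilitated diffusion. Slc1a and Slc6a proteins couple amino acid uptake to sodium, and Slc38a proteins carry glutamine, alanine and related neutral amino acids. Many Slc7a proteins exchange amino acids and need a heavy chain from the Slc3a family to reach the cell surface, and several Slc16a proteins move lactate and pyruvate together with protons. The fetal liver at this stage is the main site of red cell formation, and red cell precursors need glycine for haem and glucose for energy.

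Each difference is a log2 intensity, the mesothelial array minus the liver array, taken for a gene from its probe set of highest mean. A gene was above the floor when the array on which it read higher placed it no lower than the array median, which was 65.8 for the mesothelial and 42.3 for the liver array. Genes above the floor that differed at least 2-fold were counted as called. Control level is the highest of 27 probe sets for bacterial transcripts, 16.2 on the mesothelial and 10.5 on the liver array, and folds against it are written as at least. An SD beside a gene is that of the difference between its probe sets. Over all genes the median difference was 0.66, that is, a 1.58-fold brighter reading in the sorted cells for a typical gene. The markers of mesothelium fitted the label: 7 of 7 above the floor were called as higher there, and Pdpn, the gene used for the sort, read 38.8-fold higher. Markers of other cells were counted where called, beside the shares of all genes above the floor that were called. These shares were 45.8% on the mesothelial and 3.86% on the liver side. Erythroid markers were called as lower in the sorted cells for 6 of 7, with summed intensities of 8381 in mesothelial and 30307 in liver cells. The other, Klf1, differed by -0.22. Granulocyte markers were called as lower for 5 of 6 above the floor, with sums of 2903 and 6816 and Ngp at control level in the sorted cells. Megakaryocyte markers were called as higher in the sorted cells for 7 of 7 (sums 22860 and 6610) and macrophage markers for 5 of 7 (7434 and 2165). Stellate markers were so called for 6 of 6 (3907 and 908) and striated muscle markers for 5 of 7 (3941 and 1269). With each array centred on its median, these 4 lists had 4, 3, 5 and 4 of 7 called as higher, against 23.9% of all genes. After centring on reference genes they had 4, 1, 3 and 3 of 7, against 11.9%. There 1 macrophage, 1 stellate and 2 muscle markers were called on the liver side, against 24.6% of all genes. As deposited, endothelial markers were called as higher for 3 of 7 (2605 and 1305) and hepatocyte markers for 1 of 6 (62660 and 44168). Their median differences lay 0.07 above and 0.16 below that of all genes. All 6 hepatocyte markers read higher on the mesothelial array, by 0.29 to 1.60. The part of all these cell types in the differences of transporter genes was not tested. Fewer cells of a type and less RNA per cell cannot be told apart in such samples.

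Transporter genes split between the arrays. Of the 73 genes, 48 were above the floor and 25 below it. Of the 48, 22 were called as higher in mesothelial cells (45.8%), the same share as among all 11905 genes above the floor (45.8%). On the liver side the shares were apart: 10 of the 48 (20.8%) were called as higher in liver cells, against 3.86% of all genes. The 10 were the amino acid carriers Slc1a2, Slc1a5, Slc6a9, Slc6a14, Slc7a12, Slc7a13 and Slc38a5, the glucose carrier Slc2a4, and Slc16a6 and Slc16a10. At a 4-fold threshold 1 of the 48, Slc7a13, was called on the liver side, 2.08% against 1.08% of all genes. With each array centred on its median, 15 transporter genes were called on the mesothelial side, 31.2% of the 48, against 23.9% of all genes. Those no longer called there were Slc2a2, Slc2a3, Slc2a8, Slc2a10, Slc7a6, Slc7a7 and Slc16a13. On the liver side 13 were called, 27.1%, against 9.25% of all genes, and the 3 added were Slc2a1, Slc7a5 and Slc38a9. The mesothelial share of called transporter genes was 68.8% as deposited, 53.6% after median centring and 55.6% (15 against 12 genes) by quantile normalization, where that of all called genes was 92.2%, 72.1% and 65.1%. It was 28.6% (6 against 15) after centring on reference genes and 40.0% (10 against 15) after centring on the hybridisation controls, against 32.6% and 44.9% of all called genes, so the majority turned for all genes alike. These 2 centrings used medians per array, which shifted differences by 1.28 and 1.08. The paired differences of the same genes and controls had medians of only 0.26 and 0.019. Each of the 4 other scalings moved differences toward the liver side, so calls there could not be lost. The 6 genes called on the mesothelial side under all 5 scalings were Slc1a3, Slc2a13, Slc6a17, Slc7a8, Slc38a6 and Slc38a7. They are the 6 of 48 left after centring on reference genes, the largest shift, where 11.9% of all genes were called. They also had the 6 largest differences of the 48 as deposited, so the list follows from the size of that shift and shows no stability. The sign of the difference turned under some scaling for 13 of the 48, namely Slc1a4, Slc2a8, Slc6a6, Slc7a1, Slc7a2, Slc7a3, Slc7a9, Slc16a3, Slc16a4, Slc16a7, Slc16a12, Slc16a13 and Slc38a1.

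**Figure D1:**
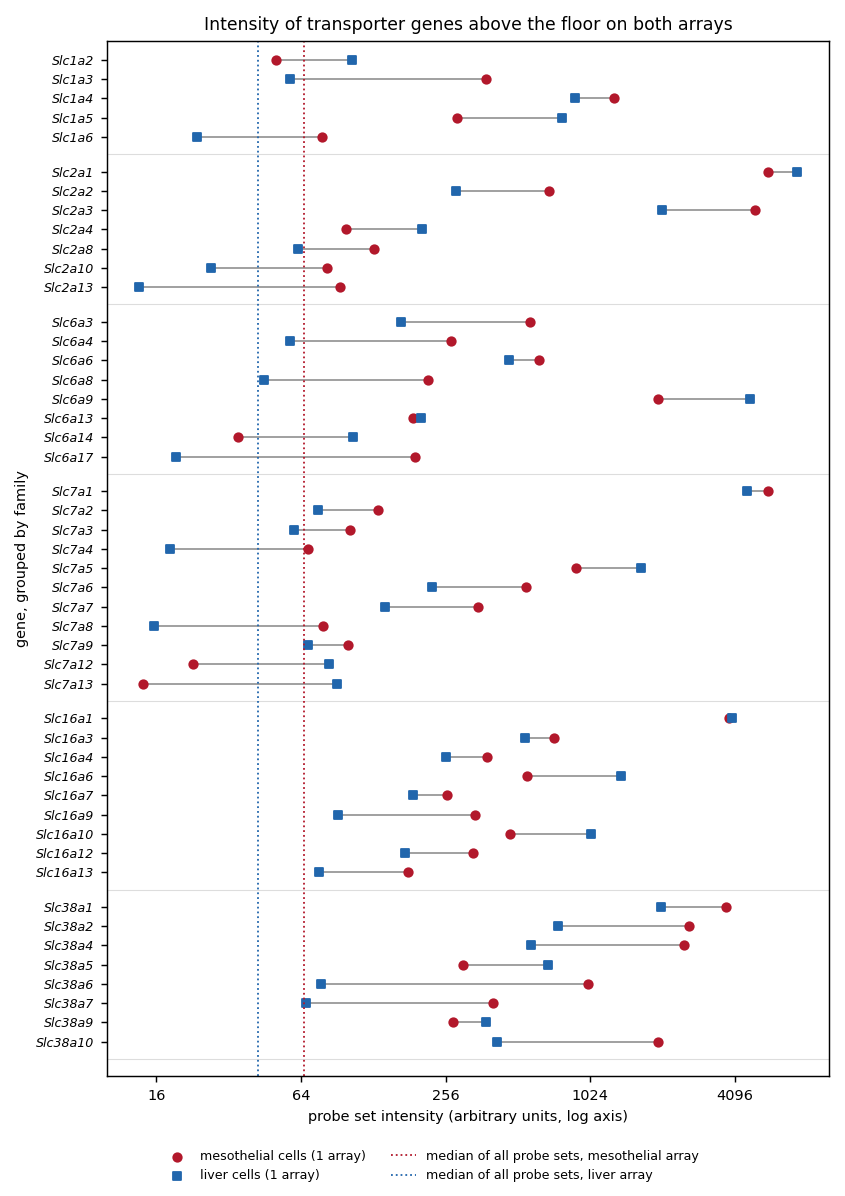
Probe set intensity (log axis, arbitrary units) of the 48 transporter genes above the floor on the mesothelial array (red circles) and the liver array (blue squares), 1 array each, with dotted lines at the median of all probe sets of each array (65.8 and 42.3). Of the 48 genes, 33 read higher on the mesothelial array and 15 on the liver array. Over all genes above the floor the 25th percentile of the difference was 0.31. A larger share of them than of the 48 thus read higher on the mesothelial array.

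The families differed in how far they leaned to the mesothelial side. The median difference over all 73 transporter genes was 0.69, or 0.03 relative to the median of all genes. The Slc38a family had a median of 1.81 over its 9 genes, or 1.15 relative to all genes, and Slc2a had 1.23 over 11 genes, or 0.56 relative to all genes. With the median over probe sets, Slc38a came to 0.94 and Slc2a to 1.28, which turned their order, beside 0.57 for all genes. The other families lay near the median of all genes: Slc7a at 0.59 over 15 genes, Slc16a at 0.57 over 13, Slc1a at 0.57 over 7 and Slc6a at 0.47 over 18. All these medians include genes below the floor. Above the floor alone, the median was 1.96 for Slc38a, 1.28 for Slc2a and 1.10 for Slc6a, beside 0.91 for all genes. It was 0.77 for Slc7a, 0.54 for Slc1a and 0.48 for Slc16a, so the order of the families depended on the floor. Each family held at least 1 gene called on each side. The middle 50% of transporter genes spanned -0.12 to 1.49, and that of all genes 0.08 to 1.33.

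**Figure D2:**
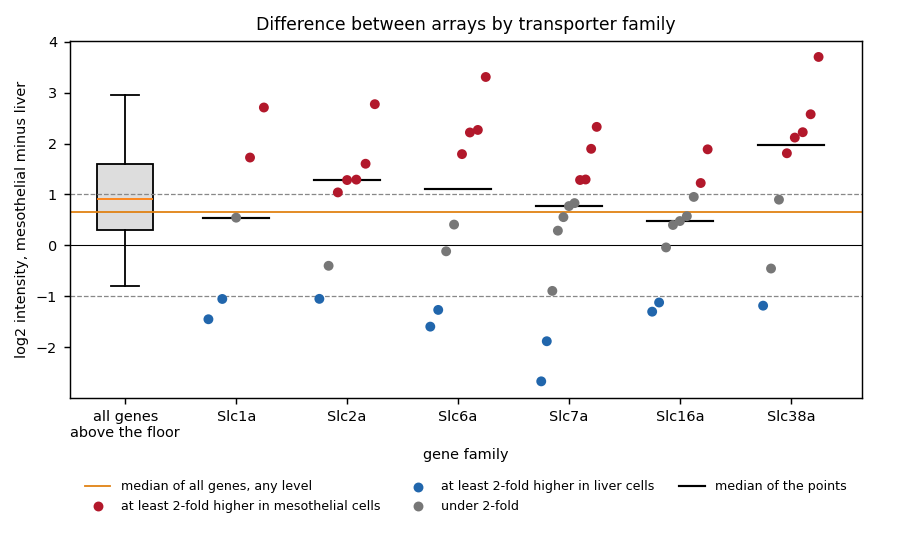
Difference between the arrays (log2 intensity, mesothelial minus liver) for transporter genes above the floor in 6 families, beside all genes above the floor as a box of the middle 50% with whiskers at the 5th and 95th percentiles. Black bars are medians of the points, so they leave out genes below the floor. Dashed lines mark 2-fold and the orange line is the median of all genes at any level, 0.66. The whisker of all genes ends at -0.80 on the liver side, below which lie 11 transporter genes.

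Among glucose carriers, the forms typical of different tissues parted. Slc2a1, the widespread carrier of basal glucose uptake and of red cells, read 5592 in mesothelial and 7385 in liver cells, a difference of -0.40 (SD 0.18, 3 probe sets). It was not called as deposited, and differed by -1.04 after median centring. Slc2a3, a high-affinity form known from neurons and platelets, read 4965 and 2027, 2.45-fold higher in mesothelial cells, and differed by 0.66 after median centring. Its 4 probe sets did not go one way: the second bright one read 4130 against 1521, and its suffix and that of the one used mark possible cross-hybridisation. The others read 20.1 against 22.3 and 19.5 against 7.0. Slc2a2, the low-affinity form of hepatocytes, read 686.8 and 282.0, 2.44-fold higher in mesothelial cells, beside the hepatocyte markers given above. After median centring it differed by 0.65. Slc2a4, the insulin-responsive carrier of muscle and fat, read 98.5 and 204.1, 2.07-fold higher in liver cells, and which cells carried its RNA was not tested. Both of its probe sets were lower in mesothelial cells. Slc2a13, which carries myo-inositol with protons, read 93.1 and 13.6, 6.85-fold higher in mesothelial cells. Slc2a10 read 82.1 and 27.0 (SD 0.15, 2 probe sets), and Slc2a8, an intracellular hexose carrier, read 128.2 and 62.3. Slc2a8 lay just inside the 2-fold limit at 1.04. Slc2a5, Slc2a6, Slc2a9 and Slc2a12 were below the floor.

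Glutamate carriers of the Slc1a family and the neutral amino acid carriers of the same family were found on both sides. Slc1a3, a glutamate and aspartate carrier known from glia, read 378.2 in mesothelial and 57.8 in liver cells, 6.54-fold higher, and all 6 of its probe sets read higher in mesothelial cells (SD 1.09), with a median of 1.07 over them. Slc1a2, another glutamate carrier, went the other way at 50.4 and 104.6, and all 5 of its probe sets read higher in liver cells. It lay just past 2-fold at -1.05, and at -0.85 with the median over probe sets. Slc1a6 read 78.1 and 23.6, 3.31-fold higher in mesothelial cells. Slc1a5 carries glutamine and other neutral amino acids and read 285.0 and 779.8, 2.74-fold higher in liver cells (SD 0.05, 2 probe sets). Slc1a4, which carries serine, alanine and cysteine, read 1287 and 882.1, a difference of 0.54. Slc1a1 and Slc1a7 were below the floor. Neural markers were below the floor for 6 of 7, with sums of 246.4 and 196.3, and Tubb3 was at control level on the mesothelial array and Th on the liver array. Among those below the floor, Sox10 had 3 probe sets with differences from 0.52 to 3.27 (SD 1.43). Which cells carried Slc1a3 RNA was not tested.

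The Slc38a family, carriers of glutamine and small neutral amino acids, spanned differences from -1.19 to 3.70. Slc38a6 read 1004 in mesothelial and 77.1 in liver cells, 13.0-fold higher and, as deposited, the largest difference of the 73 genes. Its other probe set read 43.0 and 25.3, so that the SD between them was 2.08 and their median 2.23. Slc38a7, a lysosomal glutamine carrier, read 402.2 and 67.4, 5.97-fold higher in mesothelial cells. Slc38a10 read 1952 and 417.8, 4.67-fold higher, but its 7 probe sets ranged from 0.03 to 2.22, and with their median, 0.94, it was not called. Slc38a4, an imprinted amino acid carrier known from liver and placenta, read 2521 and 580.5, 4.34-fold higher (SD 0.31, 2 probe sets). Of the hepatocyte markers, Alb read 15683 and 12832 and Hnf4a 2932 and 965.4. Slc38a2, a glutamine and alanine carrier that cells raise when amino acids run short, read 2638 and 752.0, 3.51-fold higher (SD 0.84, 3 probe sets). Its other probe sets read 435.9 against 385.7 and 134.5 against 86.2, and with the median, 0.64, it was not called. Slc38a1, its close relative, read 3772 and 2023, a difference of 0.90. Slc38a5, a carrier of glutamine, histidine and asparagine, read 300.6 and 683.5, 2.27-fold higher in liver cells, from a single probe set. Slc38a9, a lysosomal carrier that signals arginine to the growth regulator mTOR, read 273.8 and 375.3, a difference of -0.45 that came to -1.09 after median centring. Its 7 probe sets went both ways, with a median of 0.10. Slc38a3 was below the floor. Carriers of glutamine thus lay on both sides, with Slc1a5 and Slc38a5 lower and Slc38a7 higher in mesothelial cells.

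Slc6a genes encode sodium- and chloride-coupled carriers of neurotransmitters, glycine, taurine and creatine. Slc6a9, the glycine carrier GlyT1, which supplies red cell precursors with glycine for haem, read 1966 in mesothelial and 4737 in liver cells, 2.41-fold higher in liver cells. Its second probe set read 64.5 and 261.6, a larger difference in the same direction. The erythroid enzyme gene Alas2, which joins glycine into haem, read 549.9 and 4892. Slc6a14, a carrier of neutral and cationic amino acids, read 34.9 and 105.6, 3.03-fold higher in liver cells (SD 0.72, 2 probe sets). The other probe set of Slc6a14 read 4.8 and 7.2, at control level on both arrays. On the mesothelial side stood Slc6a17, a carrier of neutral amino acids in synaptic vesicles, at 191.4 and 19.3, 9.92-fold higher (SD 1.43, 3 probe sets), with a median over probe sets of 1.28. The creatine carrier Slc6a8 read 216.4 and 44.9, 4.82-fold higher (SD 0.98, 2 probe sets). The other probe set of Slc6a8 read 17.1 and 9.3, at control level on the liver array. The serotonin carrier Slc6a4, known from neurons and platelets, read 268.2 and 57.6, 4.66-fold higher. The megakaryocyte markers were also called as higher for 7 of 7 as deposited, and for 4 of 7 after median centring. The dopamine carrier Slc6a3 read 576.6 and 166.3, 3.47-fold higher, from a single probe set. Slc6a6, the taurine carrier, read 625.4 and 471.1, and Slc6a13, a carrier of GABA and taurine, 187.1 and 202.8. The other 10 Slc6a genes were below the floor.

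Slc7a genes encode carriers of cationic amino acids and exchangers of large neutral ones. Slc7a5, an exchanger that brings leucine and other large neutral amino acids into dividing cells, read 895.4 in mesothelial and 1665 in liver cells, a difference of -0.89 just short of 2-fold. Slc7a8, the related exchanger of epithelia, read 78.9 and 15.7, 5.03-fold higher in mesothelial cells. Slc7a6 and Slc7a7, which exchange cationic for neutral amino acids, read 550.4 against 224.3 and 348.2 against 142.9, 2.45-fold and 2.44-fold higher in mesothelial cells. After median centring they differed by 0.66 and 0.65 and were not called. With the median over probe sets Slc7a7 differed by 0.71 and was not called. It is also expressed by macrophages, whose markers were called as higher in the sorted cells for 5 of 7, and for 3 of 7 after median centring. Slc7a1, the widespread arginine and lysine carrier, read 5638 and 4614, a difference of 0.29, and its relatives Slc7a2 and Slc7a3 differed by 0.83 and 0.77. Slc7a4, a relative whose substrate is not settled, read 68.2 and 18.3, 3.73-fold higher (SD 0.72, 3 probe sets). The suffix of the probe set used marks possible cross-hybridisation. Its other probe sets read 50.7 against 22.3 and 6.7 against 4.9, below the floor, and the median over probe sets was 1.18. Slc7a9, the cystine carrier of kidney and gut, read 100.5 and 68.4. Slc7a12 and Slc7a13 went to the liver side at 22.7 against 83.8 and 14.1 against 89.9. Slc7a13 was at control level in mesothelial cells, which puts the liver value at least 5.55-fold above it, but its second probe set read 12.4 and 12.8. Slc7a11, which imports cystine for glutathione, read 6.0 and 9.3 and was thus at control level on both arrays, and both of its probe sets were.

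Promoter sequences are shown for Slc38a5 and Slc6a9, both higher in liver cells, and for Slc7a11, which was at control level on both arrays and serves as an undetected example. They are the 250 bases before the start in RefSeq, build GRCm38.p6, which was not tied to the arrays. Capitals mark matches to 4 motifs searched on both strands: AGATAA and TGATAA, which are forms of the GATA factor motif, the E-box CACGTG, and TGATGNAA, a form of the amino acid response motif that the factor Atf4 binds with a partner. Slc7a11 lies at chr3:50443614-50443863 on the minus strand, Slc38a5 at chrX:8271131-8271380 on the plus strand and the first of 3 Slc6a9 starts at chr4:117835008-117835257 on the plus strand.
Slc7a11: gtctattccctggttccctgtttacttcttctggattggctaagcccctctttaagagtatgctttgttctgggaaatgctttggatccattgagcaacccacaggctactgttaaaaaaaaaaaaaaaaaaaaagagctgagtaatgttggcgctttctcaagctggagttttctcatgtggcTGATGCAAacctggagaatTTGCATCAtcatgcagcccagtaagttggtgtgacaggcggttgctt
Slc38a5: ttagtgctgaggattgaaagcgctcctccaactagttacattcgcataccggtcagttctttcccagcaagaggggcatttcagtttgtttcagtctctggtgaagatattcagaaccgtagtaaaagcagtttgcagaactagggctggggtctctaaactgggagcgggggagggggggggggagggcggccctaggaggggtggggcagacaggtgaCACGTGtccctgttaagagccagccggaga
Slc6a9: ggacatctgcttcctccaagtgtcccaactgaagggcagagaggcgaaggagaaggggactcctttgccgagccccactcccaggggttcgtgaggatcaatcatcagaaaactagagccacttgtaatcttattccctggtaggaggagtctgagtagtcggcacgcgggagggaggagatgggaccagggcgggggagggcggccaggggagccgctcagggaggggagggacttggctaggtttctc

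The Slc7a11 window held 2 matches to TGATGNAA, in opposite orientations, and this motif stood in 3.45% of all 32851 windows and in 4 of 72 windows of transporter genes. Atf4 read 4043 in mesothelial and 3753 in liver cells, a difference of 0.11, and Slc7a11 was at control level on both. The Slc38a5 window held 1 CACGTG, which stood in 6.02% of all windows and in 9 of the 72. The Slc6a9 window held none of the 4 motifs. AGATAA stood in 9.99% of all windows and TGATAA in 7.94%, and neither was in any of 7 windows of the 5 liver-side genes that RefSeq listed. The absence says only that these letters were not in these windows. Among mesothelial-side genes AGATAA stood in windows of Slc7a7 alone and TGATAA in windows of Slc2a2 and Slc7a7. Windows of nearby starts of a gene can overlap and hold the same match, as those of Slc7a7 did. A match is a description of the sequence and not a bound site.

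**Figure D3:**
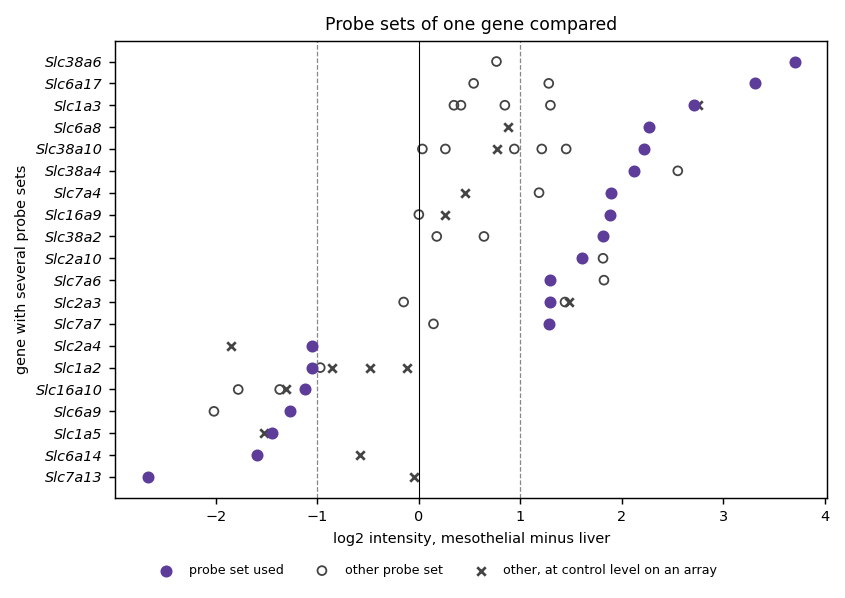
Difference between the arrays (log2 intensity, mesothelial minus liver) of each probe set for the 20 called transporter genes with several probe sets. Filled points are the probe sets used, open points the others, crosses those at control level on an array, and dashed lines mark 2-fold. For 18 of the 20 genes every probe set lay on the same side; Slc2a3 had 1 probe set on the liver side and Slc16a9 had 1 at no difference.

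Above the floor, monocarboxylate carriers spanned -1.30 to 1.89, the narrowest range of the 6 families. Slc16a1, which moves lactate, pyruvate and ketone bodies with protons, read 3853 in mesothelial and 3963 in liver cells, a difference of -0.04. Slc16a3, the lactate exporter of glycolytic cells, read 722.9 and 547.6, a difference of 0.40, and Slc16a7, a high-affinity form, read 260.2 and 186.8. These proton-coupled forms differed by less than 2-fold as deposited. The genes that differed by at least 2-fold were other members of the family. Slc16a10, a carrier of aromatic amino acids, read 472.8 and 1030, 2.18-fold higher in liver cells, and all 4 of its probe sets went that way with an SD of 0.28. Slc16a6 read 555.2 and 1370, 2.47-fold higher in liver cells, from a single probe set. Slc16a9, linked to carnitine efflux, read 337.5 and 91.2, 3.70-fold higher in mesothelial cells (SD 1.02, 3 probe sets). Its other probe sets read 50.9 against 50.9 and 10.3 against 8.6, and with the median, 0.26, it was not called. Slc16a13 read 178.2 and 76.2, 2.34-fold higher in mesothelial cells, and differed by 0.59 after median centring. Slc16a12, a creatine carrier, lay just outside the limit at 333.8 and 172.5, and Slc16a4 read 381.3 and 256.2. Slc16a5, Slc16a8, Slc16a11 and Slc16a14 were below the floor.

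The 25 genes below the floor lay between 6.0 and 59.2 on the mesothelial array and between 7.2 and 34.0 on the liver array. Of these, 5 were at control level on both arrays. The family with the most genes below the floor was Slc6a, with 10 of 18, and Slc38a had 1 of 9.

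Partner proteins, regulators and enzymes of the carried substrates were read from a list of 51 genes, of which 45 were measured and 41 were above the floor. On the mesothelial side 16 were called, 39.0% against 45.8% of all genes, and 0 on the liver side, against 3.86%. The median of the 45 was 0.82, which is 0.15 above that of all genes. After median centring 8 were called on the mesothelial and 3 on the liver side, 19.5% and 7.32% against 23.9% and 9.25% of all genes. Slc3a2, the heavy chain that Slc7a5, Slc7a6, Slc7a7 and Slc7a8 need, read 2580 and 1310, a difference of 0.98 that turned to -0.30 after centring on reference genes. Slc3a1, the heavy chain of Slc7a9, read 175.5 and 80.5. Bsg, which brings Slc16a1 and Slc16a3 to the surface, read 1396 and 1962, a difference of -0.49, while Emb, the partner of Slc16a7, read 240.2 and 180.3, and its 3 probe sets went both ways. The enzymes with the largest differences were Ldhb, which favours the use of lactate, at 2944 and 331.7, 8.88-fold higher in mesothelial cells (SD 0.48, 4 probe sets), and Cps1, the entry enzyme of the urea cycle, at 929.6 and 121.7, 7.64-fold higher. Hpd, an enzyme of tyrosine breakdown, was 5.35-fold higher, Eif2ak4, the kinase that senses amino acid shortage, 4.82-fold, Gpt2, an alanine aminotransferase, 3.84-fold and Phgdh, the first enzyme of serine synthesis, 3.36-fold. Ldha, the lactate-forming partner of Ldhb, read 8046 and 4474, a difference of 0.85. Glul, glutamine synthetase, read 5075 and 4074, a difference of 0.32. Above the floor, the largest differences on the liver side were those of Psph, which completes serine synthesis, at 389.9 and 616.5, and of the stress factor Ddit3, at 280.6 and 436.0, both under 2-fold as deposited.

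**Figure D4:**
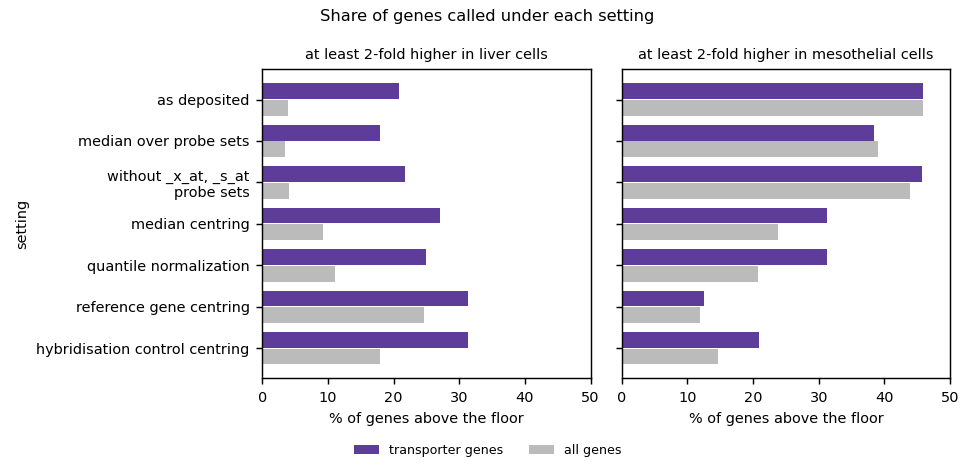
Share of transporter genes (purple, 73 measured) and of all genes (grey) above the floor called as higher in liver cells (left) or in mesothelial cells (right), in percent, under the deposited values and 6 alternatives. The liver share of transporter genes was above that of all genes under each setting shown, by 20.8% against 3.86% as deposited and by 15 of 48 against 24.6% after centring on reference genes.

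The agreement of probe sets limits how far a single value can be read. Of the 48 genes above the floor, 29 had several probe sets, and for 23 of these all probe sets differed in the same direction or not at all. The 6 that went both ways were Slc2a3, Slc6a6, Slc7a1, Slc7a2, Slc16a1 and Slc38a9. The pooled SD of the difference between probe sets above the floor was 0.60 over 20 transporter genes and 0.70 over 5323 genes, and it holds no variation between embryos, sorts or amplifications. With the median over probe sets, 15 of 39 transporter genes were called on the mesothelial side, 38.5% against 39.1% of all genes, and 7 on the liver side, 17.9% against 3.52%. With the floor at the 75th percentile of each array, 12 and 6 of 30 were called, 40.0% against 44.2% and 20.0% against 2.50% of all genes, and the 6 liver-side genes were Slc1a5, Slc2a4, Slc6a9, Slc16a6, Slc16a10 and Slc38a5.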

How the data were processed

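The deposited file holds 1 probe set intensity per array on a linear scale, judged from its values, which the authors made with RMA and Partek among the tools, per the submitters' processing notes, which give neither a version nor what each did. The design had allowed for log2 values, so log2 was taken here from the deposited intensities. The quantiles of the arrays differ, and how they were scaled against each other is unknown. Only the 34958 probe sets with 1 gene symbol in the platform annotation were used, without the control probe sets; 932 had several symbols. All 73 transporter genes matched a RefSeq gene ID under the same symbol. Of several probe sets, the one brightest on average over both arrays gave the value of a gene, and its spread is the SD between its probe sets. Counting was checked on simulated data. For precision, the number of arrays, 1 per group, is the limit.

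Genes named in full were, per family, up to 4 above the floor with the largest difference in each direction and the member with the highest mean, plus 12 such as Slc2a1 and Slc7a11; other genes above the floor could be named, and from the partner and enzyme list up to 6 in each direction plus 5 fixed genes. Members and lists were chosen with earlier results of these data known, and the promoters, Slc3a1, Atf4, Alb, Alas2 and the glutamine grouping after these values were seen. Alternatives were a median across probe sets of a gene, dropping those ending in _x_at or _s_at, 4 scalings, of which centring on hybridisation controls was added later, other floors, a 4-fold threshold and setting low values to control level. Python 3.11.15, numpy 2.4.6 and pandas 2.3.3 were used.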

Additional observations from a re-analysis of the deposited data

How the results depend on the processing

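Counts and family medians moved with the scale factor, which no replicate fixes. All 4 other scalings moved differences toward the liver side, so liver-side calls could only be kept or gained, which shows no stability. Centring on the 7 measured of 10 reference genes used a shift of 1.28 between their medians on either array, whereas their paired differences had a median of 0.26. It left 6 transporter genes on the mesothelial side, with medians of -0.59 over all, -0.71 for Slc1a, -0.051 for Slc2a (reversed), -0.80 for Slc6a, -0.69 for Slc7a, -0.70 for Slc16a and 0.53 for Slc38a. Slc16a13 then differed by -0.053, also reversed, and partners and enzymes had a median of -0.46, with 3 genes on the mesothelial and 11 on the liver side. These 3 and 11 were 7.32% and 26.8% of those above the floor, against 11.9% and 24.6% of all genes. Centring on hybridisation controls, added after the data were seen, used a shift of 1.08, whereas the paired differences of the 18 controls had a median of 0.019. It left 10 transporter genes on the mesothelial side, 20.8% against 14.6% of all genes, and 15 on the liver side, 31.2% against 17.9%. The medians were -0.39 over all, and -0.51, 0.15, -0.60, -0.49, -0.50 and 0.74 for the families in the same order. Partners and enzymes had a median of -0.26, with 4 and 5 genes called. These 4 and 5 were 9.76% and 12.2% of those above the floor, against 14.6% and 17.9% of all genes. Quantile normalization gave medians of -0.26 for Slc16a, 1.04 for Slc38a and 0.029 for partners and enzymes, with 8 and 4 called, and median centring called 8 and 3. The shares were 19.5% and 9.76% by quantile normalization, against 20.7% and 11.1% of all genes. They were 19.5% and 7.32% by median centring, against 23.9% and 9.25%. The median over probe sets brought Slc38a to 0.94. Without probe sets ending in _x_at or _s_at, Slc2a3 reversed to -0.15, since the probe set used was left out. In that setting 1 partner or enzyme gene was called on the liver side, where 4.02% of all genes were. A floor at the 75th percentile called 12 and 6 transporter genes, 40.0% and 20.0% against 44.2% and 2.50% of all genes. A 4-fold threshold called 10 and 1, that is, 20.8% and 2.08% against 16.1% and 1.08% of all genes. Where the construction of a setting does not show it, the cause was not tested. No paired analysis was possible because each group has 1 array. Members near control level are limited by signal over background.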
